A study of Mus musculus with 12 samples.

Results

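The Krüppel-like factors Klf2, Klf3, Klf4, Klf5, Klf6, Klf10, Klf13 and Klf15 were followed in the colonic tissue of mice with and without colitis. These 8 genes of the 54532 in the count table were chosen by gene name, from a list drawn up with results of these same libraries in view, so their values below are a description and no test is read from them. RNA-Seq covered 12 colon samples from male wild-type C57BL/6J mice aged 5 weeks at the start, 3 in each of 4 groups. Control mice drank plain water. Model mice drank DSS (dextran sodium sulfate, which damages the lining of the colon), and both remaining groups also received DSS. The Rhy group was given rhynchophylline, an alkaloid of Uncaria, which the study dosed at 2, 4 or 8 mg/kg; the labels do not say which of these doses the sequenced mice received. The DXM group was given the glucocorticoid dexamethasone at 4 mg/kg. The labels do not state that each library came from a separate mouse, so a spread between libraries may in part be technical.

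Krüppel-like factors are transcription factors with zinc fingers of the type that reads GC-rich and CACCC sequences in promoters, and they are related to the Sp factors. In the gut, Klf5 is known from dividing crypt cells and Klf4 from differentiated epithelium and goblet cells, and the pair bind similar sequences with opposing effects on proliferation. Klf2 is best known in endothelium and resting T cells, Klf6 and Klf10 as quickly induced genes (Klf10 by TGF-beta), Klf3 as a repressor that recruits CtBP, Klf13 in lymphocytes, and Klf15 as a glucocorticoid-responsive regulator of amino acid and lipid metabolism.

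Total counts were 14346478 to 17749716 per library, and levels are given as CPM (counts scaled to library size, on the TMM scale of edgeR) for 1 gene across libraries and as the deposited FPKM (per length) between genes. The libraries Model 1 and Model 2 resembled each other closely, with a common dispersion (variance beyond counting noise) of 0.00201 against 0.0604 to 0.351 for the other 65 pairs, so the Model spread below understates that between mice. Hoxb13, a marker of the distal colon, was at 0 to 1.49 CPM in Control 3, Model 3 and Rhy 1 and at 72.0 CPM or more in the other 9 libraries. The percent of counts on mitochondrial genes ran from 6.33 to 25.7. The colonocyte list of 8 genes held transport genes of absorptive cells and more general epithelial genes. It summed to 4721 to 27416 CPM and the goblet cell list of 7 to 1413 to 13116 CPM, so both sums differed widely among libraries. Car1 carried much of the first (509 to 17736 CPM), while the general epithelial genes Epcam (1144 to 2207 CPM), Cdh1 (547 to 1058 CPM) and Vil1 (446 to 1153 CPM) varied less. In such bulk tissue, fewer cells of a type and less RNA per cell cannot be told apart. Neutrophil genes were not higher in Model than in Control. Their summed level was 3.3 to 687 CPM in Control and 30.4 to 118 CPM in Model. Ly6g carried most of this sum (2.42 to 682 CPM over all libraries), and S100a8, S100a9, Csf3r and Cxcr2 never exceeded 4.66 CPM.

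The promoter sequences of 4 members are shown first, because these members had the largest fitted difference in a comparison with Control or Model (Klf6 in Model against Control, Klf2 and Klf4 in DXM) or are known glucocorticoid targets (Klf15). They are from RefSeq on GRCm38.p6, which matched 6 of the 8 members, and run 5′ to 3′ from 250 bases before to 50 bases after the start of transcription. Capitals mark the GC box GGGCGG, the CACCC box CACCC, the CCAAT box CCAAT and the E box CACGTG, each searched on both strands; in these 4 sequences no match of one motif overlapped a match of another. The windows are chr8:72318812-72319111 on the plus strand for Klf2, chr4:55532426-55532725 on the minus strand for Klf4, chr13:5861239-5861538 on the plus strand for Klf6 and chr6:90462326-90462625 on the plus strand for Klf15.
Klf2: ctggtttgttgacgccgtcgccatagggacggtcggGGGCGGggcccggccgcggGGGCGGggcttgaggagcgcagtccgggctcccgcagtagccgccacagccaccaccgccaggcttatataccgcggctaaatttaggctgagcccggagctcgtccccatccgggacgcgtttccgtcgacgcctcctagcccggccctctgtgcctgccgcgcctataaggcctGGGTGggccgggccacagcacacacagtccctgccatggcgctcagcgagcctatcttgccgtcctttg
Klf4: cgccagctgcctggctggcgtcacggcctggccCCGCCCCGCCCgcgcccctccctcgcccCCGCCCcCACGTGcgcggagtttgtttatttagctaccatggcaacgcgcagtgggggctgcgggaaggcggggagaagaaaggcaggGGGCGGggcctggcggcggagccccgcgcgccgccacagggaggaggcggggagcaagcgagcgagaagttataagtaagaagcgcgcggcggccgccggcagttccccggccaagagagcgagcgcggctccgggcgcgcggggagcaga
Klf6: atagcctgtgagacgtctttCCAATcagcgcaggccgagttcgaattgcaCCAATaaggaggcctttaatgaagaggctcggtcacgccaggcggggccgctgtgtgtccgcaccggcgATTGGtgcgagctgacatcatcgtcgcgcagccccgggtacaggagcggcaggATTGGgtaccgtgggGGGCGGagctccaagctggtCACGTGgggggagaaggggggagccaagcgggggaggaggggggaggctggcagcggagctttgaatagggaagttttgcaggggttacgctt
Klf15: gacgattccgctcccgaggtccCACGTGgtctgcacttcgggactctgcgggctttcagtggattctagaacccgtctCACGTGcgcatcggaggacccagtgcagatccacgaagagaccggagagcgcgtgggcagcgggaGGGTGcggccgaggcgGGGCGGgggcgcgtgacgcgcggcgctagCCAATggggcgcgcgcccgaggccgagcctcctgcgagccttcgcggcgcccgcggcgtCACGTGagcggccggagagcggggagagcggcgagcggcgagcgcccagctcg

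The GC box, the sequence that Krüppel-like and Sp factors read, was found in all 6 matched promoters (those above and those of Klf3 and Klf13) and in 35.7% of 32851 promoters of the same length. Klf3 held 6 matches, Klf4 4, Klf13 3, Klf2 2, and Klf6 and Klf15 1 each. The windows were GC-rich, from 63% in Klf6 to 76.7% in Klf3, beside a median of 52.7% over all promoters, and GC-rich windows hold GC boxes more often. The CACCC box was found in Klf2, Klf3, Klf13 and Klf15 and in 57.5% of all promoters, but not in the windows of Klf4 and Klf6. Klf6 held 4 CCAAT boxes, Klf13 2 and Klf15 1, beside 37.4% of all promoters with at least 1. The E box, a motif of clock and Myc-type factors, had 3 matches in Klf15 and 1 each in Klf4 and Klf6, and occurred in 7.15% of promoters. The glucocorticoid response element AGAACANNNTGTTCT, the cAMP response element TGACGTCA, the TATA box TATAAA and the CArG box of serum response factor had no match in the 6 windows. In the same order, they occurred in 0.00913%, 1.79%, 13.6% and 1.63% of all promoters. A window without a match was thus the usual case for each, and these absences are not particular to the members. A match is a description of letters, not a bound site.

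Klf4 was the most abundant transcript of the family. Per length, it was first in all 12 libraries, from 96.2 to 245 FPKM, and its lowest library lay above the highest of Klf5 (92.1 FPKM). Klf5 (mean 68.9 FPKM) was above Klf6 (47.1 FPKM) in 11 of 12 libraries, and Klf6 was above Klf2 (17.6 FPKM) in 11 of 12. Klf2 and Klf10 (17.0 FPKM) were not ordered, since Klf2 was the higher in only 4 of 12. Klf10 was above Klf3 (14.4 FPKM) in 10 of 12, while Klf13 (6.82 FPKM) and Klf15 (0.701 FPKM) came seventh and eighth in every library. The 8 members made up 92.7% to 95.0% of the summed FPKM of all Klf genes in the table, and Klf4 alone 34.2% to 52.4%.

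**Figure D1:**
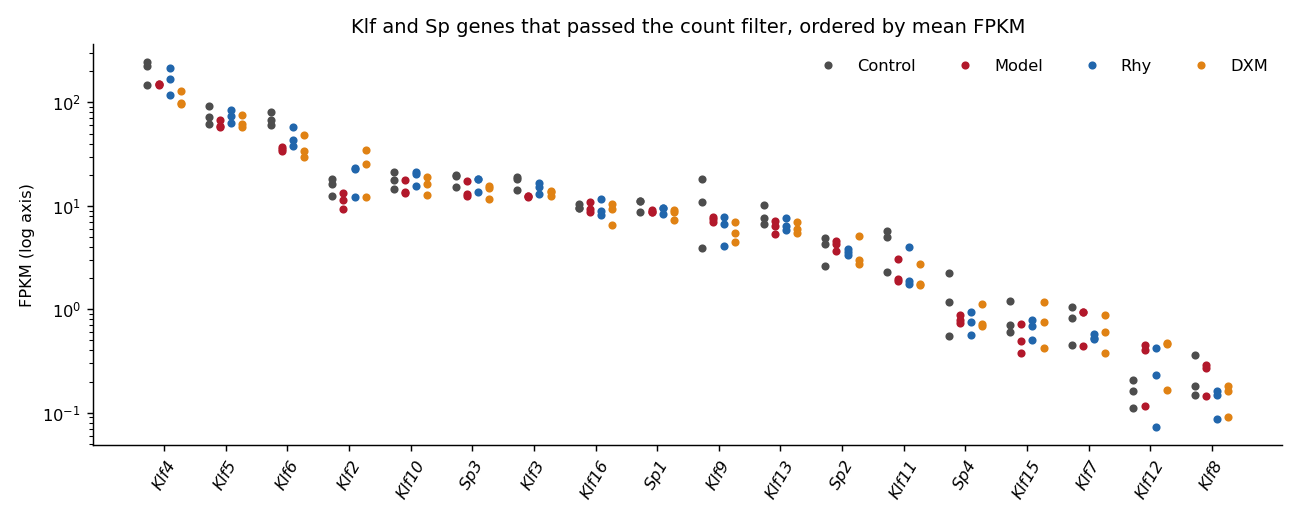
Deposited FPKM (log axis) of the Klf and Sp genes that passed the count filter, 1 point per library in 4 groups, ordered by mean. Klf4 (lowest library 96.2 FPKM) lies above every other gene, and Klf15 (mean 0.701 FPKM) is the lowest of the 8 members.

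Every member was lower in Model than in Control on the fitted scale. The list was drawn up with results of these libraries in view, and which comparison it was drawn on is not recorded, so the shared direction is no separate evidence. The groups stood wholly apart for 2 of them, Klf6 and Klf3; over all 16904 genes tested, 6.61% stood apart lower and 10.4% apart higher in this comparison. The median log2 fold change of the members was -0.39, beside 0.01 for all genes. By edgeR's quasi-likelihood test with Benjamini-Hochberg adjustment, 0% of genes passed an adjusted p of 0.05, none of the members included; 1626 genes had an unadjusted p under 0.05, DESeq2 called 46 and limma on log2(FPKM + 1) called 0.

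**Figure D2:**
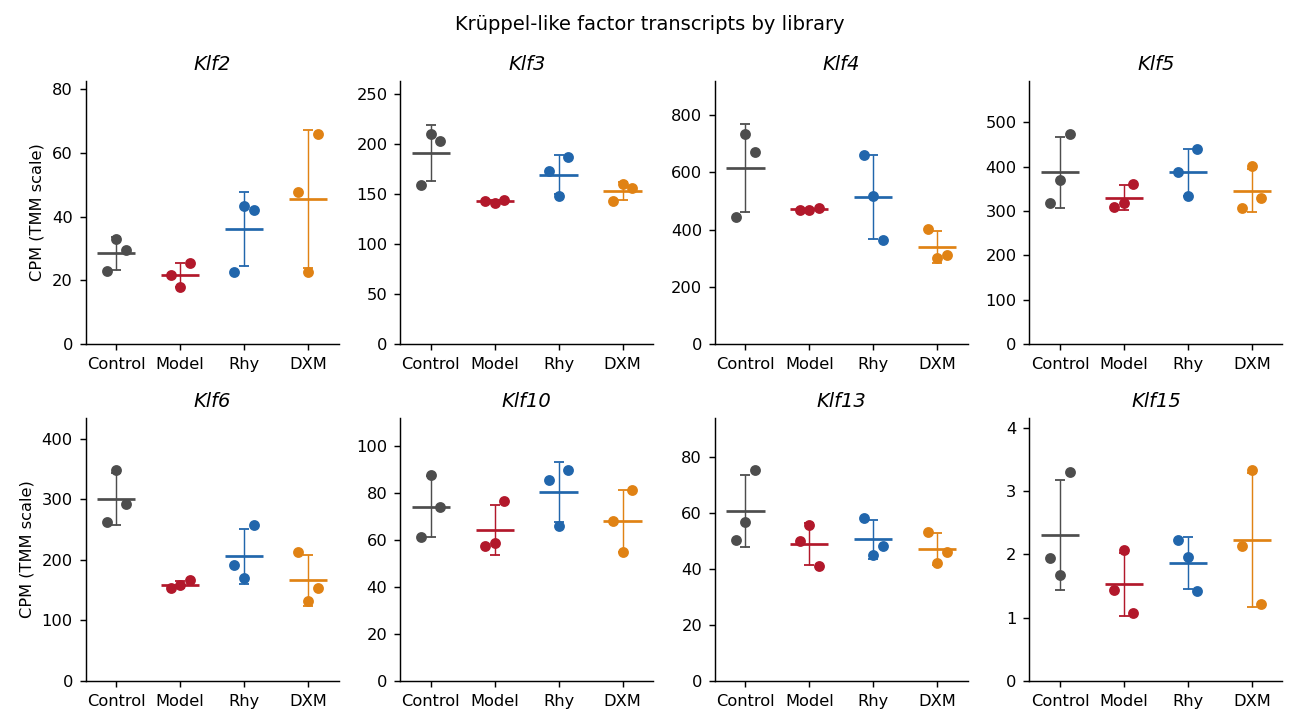
CPM of each member (linear axes from 0) in every library, with the group mean and SD (n = 3). Klf6 is lower in all 9 DSS libraries (highest 257 CPM) than in any Control library (lowest 263 CPM). How many of all genes share this pattern was not counted. The Klf2 values spread most in DXM (22.8 to 66.0 CPM).

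Klf6 (ENSMUSG00000000078, chr13:5861482-5870394, plus strand), a tumor suppressor that is also induced early after injury, had the largest difference of the members in Model against Control. It was at 263, 348 and 293 CPM in the 3 Control libraries, at 153, 159 and 166 CPM in Model, at 192, 170 and 257 CPM in Rhy, and at 214, 132 and 154 CPM in DXM. All 9 libraries of DSS-treated mice lay below the lowest Control library, by a narrow gap (257 against 263 CPM). The share of all genes with this pattern was not counted, so it is not read as particular to Klf6. The mean was 301 ± 43.2 CPM (SD, n = 3) in Control and 159 ± 6.54 CPM in Model, a log2 fold change of -0.92 (SE 0.23), and -0.90 (SE 0.28) with Model 1 and Model 2 taken as 1 library. Rhy was apart above Model for this gene, with a log2 fold change of 0.37 (SE 0.22), yet below Control by a log2 fold change of -0.55 (SE 0.23). DXM overlapped Model (0.06) and was apart below Control, with a log2 fold change of -0.85 (SE 0.23).

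Klf3 (ENSMUSG00000029178, chr5:64803388-64832901, plus strand) varied little within Model. Its levels were 159, 210 and 203 CPM in Control, 143.1, 141.4 and 144.1 CPM in Model, 173, 148 and 187 CPM in Rhy and 143.4, 160 and 157 CPM in DXM. Both Control and Rhy were thus apart above Model, although the nearest Rhy library was only a few CPM above it. The log2 fold change was -0.42 (SE 0.17) in Model against Control and 0.25 (SE 0.17) in Rhy against Model. The gene overlaps C230096K16Rik on its own strand and Gm20033 on the other, and the counting does not state the use of strand, so reads shared with these are uncertain.

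The epithelial pair, Klf4 and Klf5, differed between groups in unlike ways. Klf4 (ENSMUSG00000003032, chr4:55527143-55532466, minus strand), which promotes terminal differentiation of epithelial cells, was at 444, 736 and 673 CPM in Control, 471, 469 and 474 CPM in Model, 660, 516 and 365 CPM in Rhy, and 403, 300 and 312 CPM in DXM. Control and Rhy each spread widely, and only the DXM libraries were apart from Model and from Control, below both. The log2 fold change was -0.48 (SE 0.26) in DXM against Model and -0.87 (SE 0.26) in DXM against Control, against -0.39 (SE 0.26) in Model against Control. With the log2 Hoxb13 level of each library as a continuous term in the fit, the values for DXM were -0.39 (SE 0.25) against Model. Against Control, they were -0.72 (SE 0.26).

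Klf5 (ENSMUSG00000005148, chr14:99298691-99315036, plus strand), which sustains proliferation in the crypt, overlapped between all groups. It was at 317, 370 and 474 CPM in Control, 308, 319 and 362 CPM in Model, 388, 334 and 440 CPM in Rhy, and 308, 402 and 329 CPM in DXM, and its fitted differences from Model were 0.23 or less in size on the log2 scale in each group. The ratio of Klf4 to Klf5 in FPKM was 2.73 ± 0.571 (SD, n = 3) in Control, 2.45 ± 0.192 in Model, 2.32 ± 0.795 in Rhy and 1.71 ± 0.486 in DXM. The lowest ratios were 1.27 in DXM 2, 1.41 in Rhy 3 and 1.62 in DXM 3, while DXM 1 reached 2.23. The summed level of the colonocyte list was likewise lowest in DXM 2 and DXM 3 (6022 and 4721 CPM), where Car1 was at 1170 and 509 CPM. Slc26a3 of the same list went the other way, at 1162, 657 and 828 CPM in DXM and 505, 511 and 335 CPM in Model. So did the goblet cell sum, which was highest in DXM 2 and DXM 3 (12030 and 13116 CPM). The part of either cell type in the Klf4 values was not tested.

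Klf2 (ENSMUSG00000055148, chr8:72319033-72321656, plus strand), the flow-responsive factor of endothelium, was the member with the largest difference between DXM and Model. It was at 22.8, 33.1 and 29.5 CPM in Control, 21.6, 17.9 and 25.4 CPM in Model, 22.8, 43.4 and 42.2 CPM in Rhy, and 47.7, 22.8 and 66.0 CPM in DXM. Rhy and DXM each held 2 libraries above all of Control and 1 (Rhy 1, DXM 2) within the range of Model, so the groups overlapped. The log2 fold change was 0.74 (SE 0.36) in Rhy against Model and 1.07 (SE 0.36) in DXM against Model, and the latter was 0.70 without DXM 3 and 1.39 without DXM 2. Between DXM and Rhy, the value of 0.33 turned to -0.04 without DXM 3.

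Endothelial and macrophage genes were low and high in many of the same libraries. The summed level of 6 endothelial genes was 41.2 CPM in Rhy 1 and 59.7 CPM in DXM 2, where Klf2 was low, and 108 CPM in Rhy 2, 126 CPM in DXM 1 and 107 CPM in DXM 3, where it was high; Rhy 3, with 60.7 CPM, was an exception. The summed level of 6 macrophage genes was 30.2 CPM in Rhy 1 and 98.5 CPM in DXM 2, against 121, 161, 198 and 256 CPM in Rhy 2, Rhy 3, DXM 1 and DXM 3. In Control, neither sum followed Klf2. Control 1 had a macrophage sum of 215 CPM with Klf2 at 22.8 CPM. The endothelial sum was 80.9 CPM in Control 3 (Klf2 at 29.5 CPM) and 57.8 CPM in Control 2 (Klf2 at 33.1 CPM). In DXM against Model, 4 of 6 macrophage genes and 3 of 6 smooth muscle genes stood apart higher and 0 lower, beside 10.4% of all genes higher. Of the genes known as Klf2 targets, Nos3 and Thbd stood apart above Model in DXM, beside 10.4% of all genes, while S1pr1 and Ccr7 overlapped. Thbd, the thrombomodulin gene, differed most, at 37.0, 19.6 and 35.9 CPM in DXM and 8.77, 8.07 and 12.1 CPM in Model, a log2 fold change of 1.67 (SE 0.53, edgeR adjusted p = 0.622). The difference of Ccr7 was smaller, a log2 fold change of 0.55 (SE 0.90, edgeR adjusted p = 0.895). The endothelial list had 3 of 6 genes apart above Model in DXM (Kdr, Tek and Emcn), and Tek, an angiopoietin receptor, was its highest (1.52, SE 0.42, edgeR adjusted p = 0.622). The part of endothelial, macrophage or smooth muscle content in the Klf2 values was not tested.

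**Figure D3:**
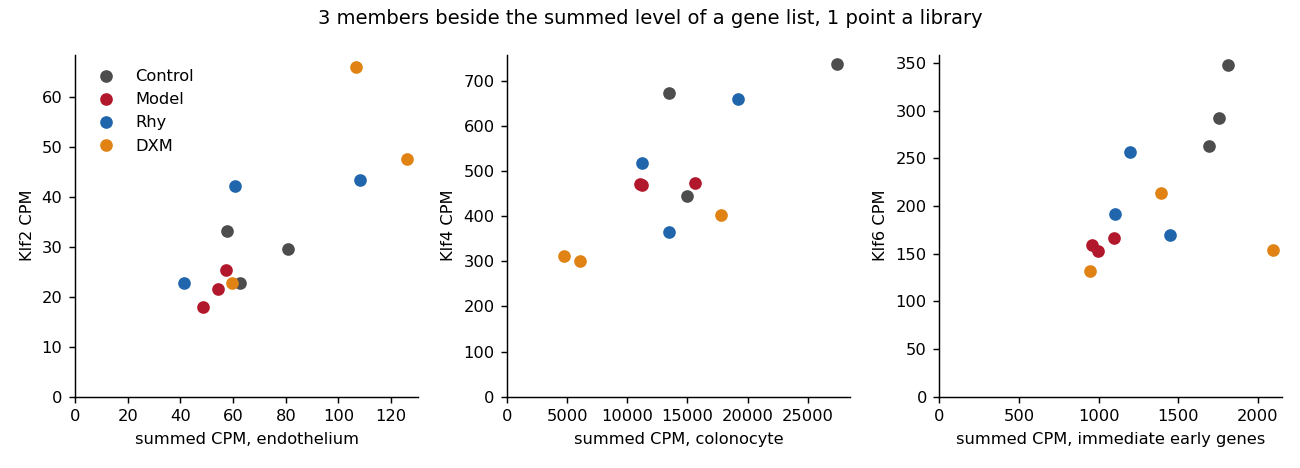
CPM of Klf2, Klf4 and Klf6 (y axes) against the summed CPM of the endothelium, colonocyte and immediate early gene lists (x axes), 1 point per library, all axes from 0. Klf2 is highest in DXM 3 (66.0 CPM), where the endothelial sum is 107 CPM, Klf4 is lowest in DXM 2 (300 CPM), and the 3 Control libraries are highest for Klf6 (263 CPM or more).

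Klf10 (ENSMUSG00000037465, chr15:38291463-38300706, minus strand), the TGF-beta inducible early gene, was at 61.3, 87.6 and 74.1 CPM in Control, 57.5, 58.9 and 76.8 CPM in Model, 85.8, 66.0 and 89.7 CPM in Rhy, and 68.4, 54.9 and 81.4 CPM in DXM. All 4 groups overlapped, with log2 fold changes of -0.21 (SE 0.21) in Model against Control and 0.32 (SE 0.21) in Rhy against Model. Klf13 (ENSMUSG00000052040, chr7:63886351-63938915, minus strand) was at 50.3, 57.0 and 75.3 CPM in Control, 50.2, 55.8 and 41.1 CPM in Model, 58.4, 45.0 and 48.4 CPM in Rhy, and 53.3, 42.3 and 46.0 CPM in DXM. It overlaps Gm27252 and E030018B13Rik on the opposite strand, whose reads may be shared with it. It was highest in Control 3, and its differences from Model were 0.05 in Rhy and -0.05 in DXM on the log2 scale.

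Klf15 (ENSMUSG00000030087, chr6:90462576-90475238, plus strand) was close to the lower end of what the counts resolve, with 18 to 69 reads per library. It was at 1.95, 1.67 and 3.29 CPM in Control, 1.43, 2.06 and 1.07 CPM in Model, 2.23, 1.96 and 1.41 CPM in Rhy, and 2.13, 3.33 and 1.22 CPM in DXM. The DXM libraries overlapped every other group, and the log2 fold change against Model was 0.55 (SE 0.46), about the size of its error. The 9 glucocorticoid targets were likewise mixed in DXM against Model, with 1 apart higher and 3 apart lower, beside 10.4% and 12.2% of all genes. The first was Per1, a clock gene also known to be induced by glucocorticoids (0.39), and the others were Nr3c1, the glucocorticoid receptor gene (-0.49), and Fkbp5 (-0.63) and Tsc22d3 (-0.33), both likewise known as induced genes. Tsc22d3 was at 69.9, 73.0 and 65.4 CPM in DXM and 94.5, 94.4 and 73.8 CPM in Model. Mt2, a metallothionein, was the highest of these at 1.64 (SE 0.78, edgeR adjusted p = 0.655), from 5.69, 1.21 and 1.01 CPM in DXM and 1.05, 0.73 and 0.71 CPM in Model. Zbtb16 was the lowest at -0.70 (SE 0.52, edgeR adjusted p = 0.736). Of 6 metabolic genes that Klf15 is known to control, 0 stood apart in DXM against Model, with a median log2 fold change of -0.22.

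Against Model, all 8 members had positive log2 fold changes in Rhy, with a median of 0.27 beside -0.01 for all genes, although without Rhy 1 Klf4 was at -0.10 and Klf13 at -0.07. The comparison shares its Model libraries with that of Model against Control, so their opposite signs are not separate evidence. Klf3 and Klf6 stood apart higher, beside 5.51% of all genes higher and 6.02% lower. In DXM against Model, 6 members were positive and 2 negative, with a median of 0.08, and Klf4 alone stood apart, lower, beside 12.2% of all genes lower and 10.4% higher. The signs of Klf5, Klf6 and Klf10 turned there when 1 DXM library was left out (-0.05 without DXM 2, -0.16 without DXM 1 and -0.06 without DXM 3). Against Control, Klf6 stood apart lower in Rhy (4.79% of all genes lower, 7.5% higher), and Klf4 and Klf6 stood apart lower in DXM (8.89% lower, 9.77% higher). No member stood apart between DXM and Rhy, beside 7.45% of all genes higher and 4.71% lower, and Klf4 had the largest difference there, with a log2 fold change of -0.60 (SE 0.26).

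By edgeR's adjusted p, 0% of genes were called in each of these other 5 comparisons. At an unadjusted p under 0.05 there were 628 genes in Rhy against Model, 1300 in DXM against Model, 1953 in Rhy against Control, 3189 in DXM against Control and 848 in DXM against Rhy. DESeq2 called 5, 52, 33, 1051 and 9 genes in the same order, and limma on log2(FPKM + 1) called 0 in each.

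**Figure D4:**
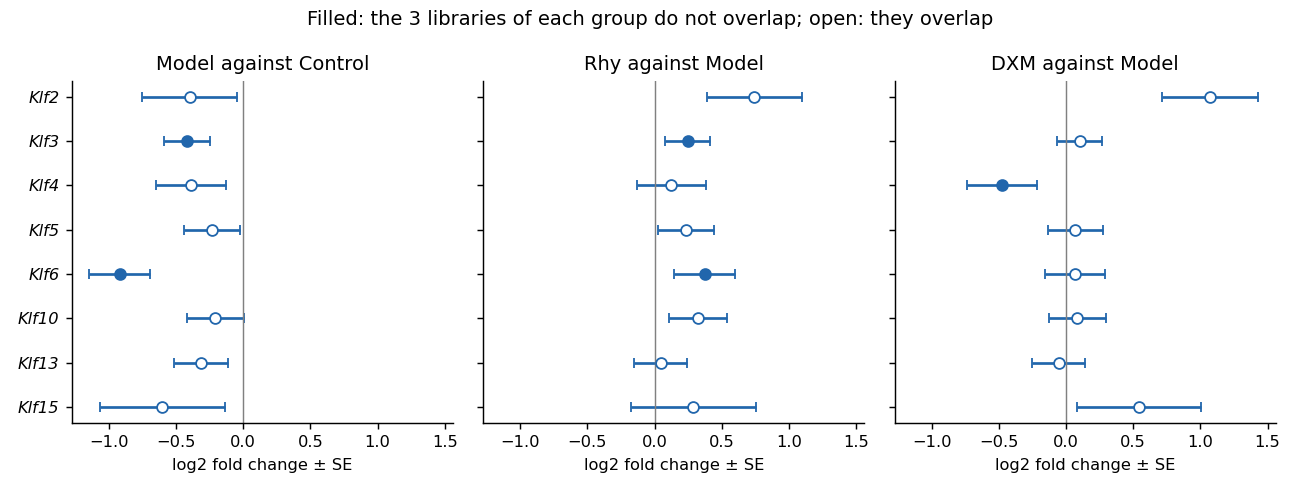
Log2 fold change of each member with its SE in Model against Control, Rhy against Model and DXM against Model. Filled points mark members whose groups do not overlap: Klf6 (-0.92) and Klf3 (-0.42) in the first, both again (0.37 and 0.25) in the second, and Klf4 (-0.48) in the third.

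Among the relatives of the members, the 6 other Klf genes that passed the count filter (Klf7, Klf8, Klf9, Klf11, Klf12 and Klf16) did not share one direction in Model against Control, with 4 positive and 2 negative. Klf11, a TGF-beta inducible relative of Klf10, was the lowest at -0.86 (SE 0.41, edgeR adjusted p = 0.528), from 9.88, 24.6 and 21.3 CPM in Control and 8.38, 8.80 and 13.5 CPM in Model. Klf12, a repressor that like Klf3 recruits CtBP, was the highest at 1.07 (SE 0.67, edgeR adjusted p = 0.630), at no more than 3.39 CPM in any library. Klf9, a hormone-responsive gene, was at 12.8, 35.0 and 58.8 CPM in Control and 23.8, 25.1 and 25.8 CPM in Model, so Model fell inside the Control range. It was the only one of these 6 to stand apart in DXM against Model, lower, beside 12.2% of all genes lower and 10.4% higher. The means were 18.9 CPM in DXM and 24.9 CPM in Model (log2 fold change -0.40, SE 0.43, edgeR adjusted p = 0.822). The gap was narrow, with 23.4 CPM in DXM 2 against 23.8 CPM in Model 1.

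In Rhy against Model, 5 of these 6 genes were negative, from -0.86 (SE 0.52) in Klf8 to 0.12 (SE 0.41) in Klf11, and Klf7 and Klf16 were at -0.53 and -0.03. Of the Sp genes, Sp1 to Sp4 passed the filter, and 0 of them stood apart in these 3 comparisons. Sp1, the broadly expressed factor of the group, was at 71.2, 90.2 and 91.9 CPM in Control and 74.7, 75.2 and 76.8 CPM in Model (-0.16, SE 0.16), and Sp3, its close relative, differed by -0.31 (SE 0.20). Sp2 differed by 0.13 (SE 0.28) and Sp4 by -0.66 (SE 0.44). Klf1, Klf14, Klf17 and Sp5 to Sp9 were at or under 0.86 CPM in every library and did not pass the filter.

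Quickly induced genes, to which Klf2, Klf4, Klf6 and Klf10 are often counted, were low in Model together with Klf6. Of 18 immediate early genes, 10 stood apart below Control in Model and 0 above, with a median log2 fold change of -0.76, beside 6.61% of all genes lower and 10.4% higher. Egr1, a zinc finger factor, was at 38.3, 31.1 and 157 CPM in Control and 19.7, 20.6 and 27.3 CPM in Model (-1.74, SE 0.61, edgeR adjusted p = 0.479), while Arc was the highest of the list (0.94, SE 0.97, edgeR adjusted p = 0.777). In DXM against Model, 4 of the 18 were apart higher (Egr1, Egr2, Egr3 and Nr4a1) and 0 lower, beside 10.4% and 12.2% of all genes. Nr4a1, an orphan nuclear receptor, led them at 25.4, 25.5 and 221 CPM against 15.3, 12.5 and 13.9 CPM (2.71, SE 0.83, edgeR adjusted p = 0.622), a mean that rested on DXM 3. Klf6 in DXM did not follow, since DXM 3 had the highest sum of the list (2096 CPM) with Klf6 at 154 CPM.

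Other lists stood beside the lower Klf levels of Model, where 6.61% of all genes were apart lower and 10.4% apart higher. Of 14 circadian clock genes, 8 were apart lower in Model than in Control, with a median of -0.62, from -1.58 (SE 0.54) in Ciart to 0.52 (SE 0.45) in Arntl. Of 8 genes of the colonocyte list, 4 were apart lower, with a median of -0.78 for the list. They were Car4 and the general epithelial genes Vil1, Cdh1 and Epcam. Aqp8, a water channel, had the lowest value at -1.68 (SE 0.71) but overlapped, since its Control libraries ran from 216 to 2606 CPM. Of 7 crypt proliferation genes, 3 were apart higher (Cdk1, Pcna and Mcm5), with a median of 1.05, led by Mcm5 at 1.75 (SE 0.50), while Klf5 did not share that direction. Of the genes of these lists, 0 passed an adjusted p of 0.05. Of the genes of TGF-beta signaling, Smad3 and Smad7 stood apart lower in Model against Control, and Pmepa1 had the highest value at 0.35 (SE 0.50). Of 12 partners and regulators of Krüppel-like factors, 0 stood apart in Model against Control, and 3 were apart lower in DXM against Model, beside 12.2% of all genes, namely Sin3a, Ep300 and Hdac1 (-1.20, SE 0.39, edgeR adjusted p = 0.622).

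Across the 12 libraries the members did not vary as a block. Pearson's r of log2 CPM was positive in 23 of the 28 pairs, with a median of 0.37, and is given as a description over libraries that share groups, depth and tissue makeup. The most alike pairs were Klf3 with Klf6 (0.78) and Klf3 with Klf5 (0.76), and the least alike was Klf10 with Klf15 (-0.38). Klf2 was negatively related to Klf4 (-0.29).

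The 3 genes most like each member among 11546 other genes of at least 5 CPM were found in the same way. Klf4 was most like Ces2c, a carboxylesterase (r = 0.97), Sertad2 (0.96) and Ocln, the occludin gene of tight junctions (0.96). Klf2 was most like Tgfb3 (0.93), Grk5 (0.92) and Col14a1, a fibrillar collagen-associated gene (0.92). Klf5 was most like Zfp24 (0.95), Stim2 (0.90) and Csnk1a1 (0.89). Klf6 was most like Pacsin2 (0.93), Myo1a, a brush border myosin (0.92), and Secisbp2l (0.92). Klf3 was most like Cdc40 (0.91), Scyl2 (0.90) and March7 (0.88). For Klf13 the genes were Cachd1 (0.88), Casz1 (0.87) and Psd3 (0.87), for Klf10 Utp14b (0.86), Ldb3 (0.85) and Srd5a3 (0.85), and for Klf15, the least abundant member, Sybu (0.76), Vangl1 (0.72) and Ago1 (0.70). These genes are the highest of 11546 values of r, so high values come in part from the picking. With Model 1 and Model 2 averaged to 1 library, the first gene of each member had an r between 0.75 and 0.98. Averaging such nearly alike libraries could change r only a little, so this is no separate evidence.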

How the data were processed

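Libraries were made from colon RNA. Per the labels' processing notes, the submitters used HISAT2 2.0.5, featureCounts 1.5.0-p3 and DESeq2 1.16.1 with the mm10 build; use of strand is not given in the sources used here. The authors deposited read counts per gene without normalization, and FPKM values made from these counts. All 262985 FPKM values above 0 were recovered from the counts within 0.1% or 0.001 FPKM. For this, counts were divided by gene length and by DESeq2 size factors (median ratios), with a common constant, and not by the total count. Counts were fitted in R 4.3.3 with edgeR 4.0.16: genes passing filterByExpr (minimum count 10), TMM scaling and the quasi-likelihood test on 4 group means over all 12 libraries, two-sided, with Benjamini-Hochberg adjustment over 16904 genes. For each log2 fold change, the SE was taken as its absolute value over the root of F. CPM carried no prior count, and correlations used log2 CPM with a prior count of 2. Alternatives were limma 3.58.1 on log2(FPKM + 1) or log2(FPKM + 0.1), and DESeq2 1.42.0. Each test was tested on simulated data. "Apart" means that the 3 libraries of both groups do not overlap. For 3 against 3, an exact permutation test could not go below p = 0.1. Since Model 1 and Model 2 are nearly alike, standing apart from Model is easier than this implies.

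The members and the gene lists were chosen with earlier results of these data known. The genes named are the 8 members, the measured Klf and Sp genes, the 3 genes most alike to each member, and from each described list the genes with the lowest and highest log2 fold change in the comparison; other genes of a list are named where few of it stood apart, and were picked after their values were seen. Some genes of the lists are not reported here. The symbol March7 was read from its identifier, since the count table holds a date in its place. Same-numbered libraries of different groups did not deviate together: of 18 pairs, 6 had a correlation of deviations above 0.1 (range -0.31 to 0.36), so numbers do not pair the libraries. Other alternatives were RLE and upper-quartile scaling, a fit of only the groups compared, and a table of every gene with a count. A replicate block, a continuous term for log2 Hoxb13 CPM, and Model 1 and Model 2 as 1 library were also tried. Each library was also left out in turn.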

Additional observations from a re-analysis of the deposited data

How the results depend on the processing

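With 3 libraries a group, and Model 1 and Model 2 nearly alike, only large differences can be called, and Klf15 has few counts. Of 768 values of the members over the alternatives, 767 moved by less than the spread between replicates. Leaving out 1 of 3 libraries can hardly move a group mean by more than that spread, so the count says little for those settings. Of the 768, 29 changed sign, none of them in Model against Control. Klf3 in DXM against Model moved to 0.18 with upper-quartile scaling. Klf6 in Model against Control ran from -1.01 to -0.80.

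Genes called by adjusted p, 0 in the reported fit, depended most on the tool. DESeq2 called 46 in Model against Control, 5 in Rhy against Model, 52 in DXM against Model, 33 in Rhy against Control, 1051 in DXM against Control and 9 in DXM against Rhy. Only 3 of the member values passed under any alternative, all with DESeq2. They were Klf6 in Model against Control (-0.97, DESeq2 adjusted p = 0.0290), and Klf4 (-0.91, DESeq2 adjusted p = 0.0235) and Klf6 (-0.90, DESeq2 adjusted p = 0.0141) in DXM against Control. In the simulated counts, 200 genes were changed 4-fold in Rhy against Model. DESeq2 recovered the most of these, 146 beside 119 for edgeR and 103 for limma. DESeq2 also made the most false calls, 25 beside 4 for edgeR and 3 for limma. The simulation held no nearly identical pair of libraries and did not cover the comparisons of these 3 member values. With all genes with any count, edgeR called 1 in Model against Control, 1 in Rhy against Control and 13 in DXM against Control. With only the groups compared it called 1 in Model against Control and 2 in DXM against Model. Limma on log2(FPKM + 0.1) called 2 in Rhy against Model and 1 in DXM against Model. With 1 library left out, the number was 0 to 1 in Model against Control and in Rhy against Model (1 without Model 3 in both) and 0 to 4 in DXM against Control (4 without DXM 1, 1 without DXM 3). The cause was not tested. At an unadjusted p under 0.05, the 1626 genes of Model against Control became 866 with Model 1 and Model 2 as 1 library and 2811 without Control 3. The 628 of Rhy against Model became 283 with these as 1 library, 972 with all genes with any count, 1007 without Model 3 and 1066 without Rhy 1. The 1300 of DXM against Model became 736 with these as 1 library, 537 without DXM 3 and 2514 with only the groups compared. The 1953 of Rhy against Control became 999 with only the groups compared, 1195 without Rhy 2 and 2938 without Control 3, the 3189 of DXM against Control 2061 without Control 2 and 1639 without DXM 3, and the 848 of DXM against Rhy 1320 with all genes with any count, 418 without Rhy 1, 1328 without Rhy 3 and 372 without DXM 3. The replicate block changed no call: 0 genes were called in each comparison.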
